A study of Mus musculus with 6 samples.

Results

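The mitochondrial ribosomal protein genes were taken as the genes whose symbol begins with Mrpl or Mrps followed by a digit and which had 10 or more counts in every library, leaving out symbols with -ps, the ending used for pseudogenes. Of 84 symbols of this pattern among 55291 listed genes, 77 were kept, 48 named for the large subunit (Mrpl) and 29 for the small subunit (Mrps). The other symbols were 6 pseudogenes and Mrpl53, a large-subunit gene with 2, 2, 6, 12, 3 and 3 counts in the 2 Vehicle, 2 MASM7 and 2 MFI8 libraries. In GENCODE, 88.0% of the exonic bases of Mrpl53 are shared with Gm42688 on the same strand. The 2 kept genes of lowest count were Mrpl23, with 135 to 231 counts, and Mrps33, with 267 to 386 counts, so no member stood close to the minimum.

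The mitochondrial ribosome translates the few messenger RNAs that mitochondria encode themselves, all for subunits of oxidative phosphorylation. Its rRNAs are made from mitochondrial DNA, whereas all of its proteins are encoded in the nucleus, made in the cytosol and imported. The small subunit reads the codons, and the large subunit joins the amino acids and passes the new chain to the inner membrane. Many of its proteins have a counterpart in the bacterial ribosome and others were added in mitochondria.

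Polyadenylated RNA was sequenced from wild-type mouse embryonic fibroblasts (WT MEFs) in 3 groups of 2 independent biological replicates. The cells were given vehicle, 1 μM MASM7 for 6 h, or 20 μM MFI8 for 6 h. MASM7 is a small-molecule activator and MFI8 a small-molecule inhibitor of the mitofusins, the outer-membrane GTPases that fuse mitochondria, and the comparisons ask how the cells' transcripts respond to each. How long vehicle was applied is not stated in the sources used here, and the compounds were used at 1 concentration each, so compound and concentration cannot be told apart.

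Libraries held 22791792 to 30677751 counts, and the 77 genes took 0.4157% to 0.4389% of them. Of 10 fibroblast markers, 8 were at 1 TPM (the authors' transcript level, scaled per gene length and library) or more in every library, the exceptions being Thy1 and Lum. The 10 markers summed to 4065 to 5144 TPM. None of 5 epithelial or 4 endothelial markers reached 1 TPM in every library, and their sums were 1.025 to 1.689 and 0.212 to 0.433 TPM. Of leukocyte markers 2 of 4 (Cd68 and Csf1r) and of neural markers 2 of 3 (Map2 and Tubb3) reached it, while Ptprc, Adgre1 and Sox10 stayed near or at 0. Tubb3 was higher in every treated library, at 47.1 and 49.6 TPM in Vehicle, 62.5 and 62.4 in MASM7, and 68.4 and 61.6 in MFI8, whereas Map2, at 4.18 to 5.83 TPM, overlapped between Vehicle and MFI8 and was lower in both MASM7 libraries, and their part in the results was not tested. The second replicate of each group was lower than the first in Dcn, at 82.6 and 53.5 TPM in Vehicle, 80.0 and 55.9 in MASM7, and 64.2 and 43.7 in MFI8, so same-numbered libraries shared differences and fits with the replicate number as a block are given where they change a call. In bulk RNA a smaller share of a cell type and less RNA per cell cannot be told apart.

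The genes lay on 17 chromosomes, and 18 of 77 (23.4%) had the start of another protein-coding gene within 1000 bases on the opposite strand, reading away from them. RefSeq promoters, 300 bases from 250 before to 50 after a start, were found for 68 of the 77 genes (74 promoters, build GRCm38.p6). The ETS-family letters CCGGAAG, read on both strands, stood in 33.8% of these promoters and in 8.86% of all 32851. The 32851 were not limited to genes expressed in these cells, so members were not compared with other expressed genes. The letters GCGCANGCG of nuclear respiratory factor 1 (NRF1), a regulator of nuclear genes for mitochondrial proteins, stood in 21.6% against 6.25%, and the YY1 letters AAGATGG in 17.6% against 6.34%. The GC-box letters GGGCGG were in 52.7% against 35.7%, and CCAAT was in 39.2% against 37.4%. By subunit, the ETS letters were in 29.8% of large-subunit and 40.7% of small-subunit promoters, and the NRF1 letters in 25.5% and 14.8%.

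The promoters of Mrps18b and Mrpl14 are shown because these genes had the smallest p of their subunits with MASM7, and that of Mrpl50 because it had the smallest p with MFI8. Capitals mark matches to the ETS, NRF1 or YY1 letters. Mrps18b lies at chr17:35910379-35916389 on the minus strand, and its promoter window is chr17:35916391-35916690, with 1 NRF1 and 1 ETS match. Of its exonic bases 30.5% lie opposite Gm16279. Mrpl14 lies at chr17:45686322-45698495 on the plus strand, and its window is chr17:45686099-45686398, with 1 NRF1 match. Of its exonic bases 11.2% lie opposite Tmem63b. Mrpl50 lies at chr4:49512596-49521093 on the minus strand, and its window is chr4:49521034-49521333, with no match to these 3 sets of letters. A match is a run of letters only, and binding was not measured here.
Mrps18b: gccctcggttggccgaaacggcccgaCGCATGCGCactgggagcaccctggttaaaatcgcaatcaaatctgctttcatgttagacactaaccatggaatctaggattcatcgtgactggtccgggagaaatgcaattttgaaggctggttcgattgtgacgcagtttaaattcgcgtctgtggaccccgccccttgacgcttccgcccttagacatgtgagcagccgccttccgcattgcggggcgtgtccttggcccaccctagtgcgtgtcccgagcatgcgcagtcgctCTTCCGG
Mrpl14: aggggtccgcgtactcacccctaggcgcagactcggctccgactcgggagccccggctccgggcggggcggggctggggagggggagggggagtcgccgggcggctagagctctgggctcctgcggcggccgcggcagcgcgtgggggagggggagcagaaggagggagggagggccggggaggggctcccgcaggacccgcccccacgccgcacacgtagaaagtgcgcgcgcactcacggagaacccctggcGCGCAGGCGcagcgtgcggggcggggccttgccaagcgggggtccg
Mrpl50: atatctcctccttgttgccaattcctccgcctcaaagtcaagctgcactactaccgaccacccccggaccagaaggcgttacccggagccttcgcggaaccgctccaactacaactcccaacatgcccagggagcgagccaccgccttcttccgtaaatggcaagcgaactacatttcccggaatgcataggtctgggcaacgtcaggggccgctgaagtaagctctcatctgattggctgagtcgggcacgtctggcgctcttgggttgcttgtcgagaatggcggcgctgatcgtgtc

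Levels per gene length spanned a 76.7-fold range. Mrpl12, a protein of the stalk that recruits translation factors, was the highest at 368 ± 21.2 TPM (SD, n = 6), with 350 and 339 TPM in Vehicle, 372 and 399 in MASM7, and 379 and 370 in MFI8. Mrpl28 followed at 283 ± 8.64 TPM and Mrpl54 at 256 ± 5.15 TPM, and neither range reached that of the gene above it. The highest small-subunit genes were Mrps21 at 222 ± 8.57 TPM, Mrps7 at 191 ± 8.44 TPM and Mrps6 at 148 ± 5.45 TPM. Over all 77 genes, 10 of 76 neighbouring pairs in the order of mean TPM had ranges over the 6 libraries that did not overlap, so most of the order was not resolved.

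The lowest levels per gene length were those of Mrpl23 at 4.80 ± 0.50 TPM, Mrpl48 at 7.08 ± 0.23 TPM, and Mrps35 at 16.7 ± 0.42 TPM. Mrpl23 lines the exit tunnel of the large subunit, and its TPM of 3.91 to 5.42 was close to the 2.96 to 4.88 TPM of the pseudogene Mrpl23-ps1. In counts they were not close, with 135 to 231 for Mrpl23 and 14 to 20 for Mrpl23-ps1. Reads shared between near-identical copies could be placed on either, so both values are uncertain. Among the other lowest genes of each subunit were Mrpl33 at 20.3 ± 0.61 TPM in the large and Mrps10 at 19.1 ± 1.09 TPM and Mrps9 at 23.6 ± 0.31 TPM in the small subunit. In GENCODE, Mrps35, Mrpl48, Mrps10 and Mrpl33 have 8631, 8152, 8079 and 7326 exonic bases, against a member median of 2533. In counts, Mrps35 had 903 to 1257, Mrps10 1018 to 1381 and Mrpl33 967 to 1284, all above Mrps33 with 267 to 386. Mrpl23 and Mrpl48 (377 to 510 counts) were low in counts too. How far gene length set the order in TPM was not tested. The median gene was at 72.1 TPM, and the subunit medians were 81.3 TPM for the large and 48.3 TPM for the small subunit. Between libraries a gene varied little, with a median coefficient of variation of 4.37% and a maximum of 10.5%.

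**Figure D1:**
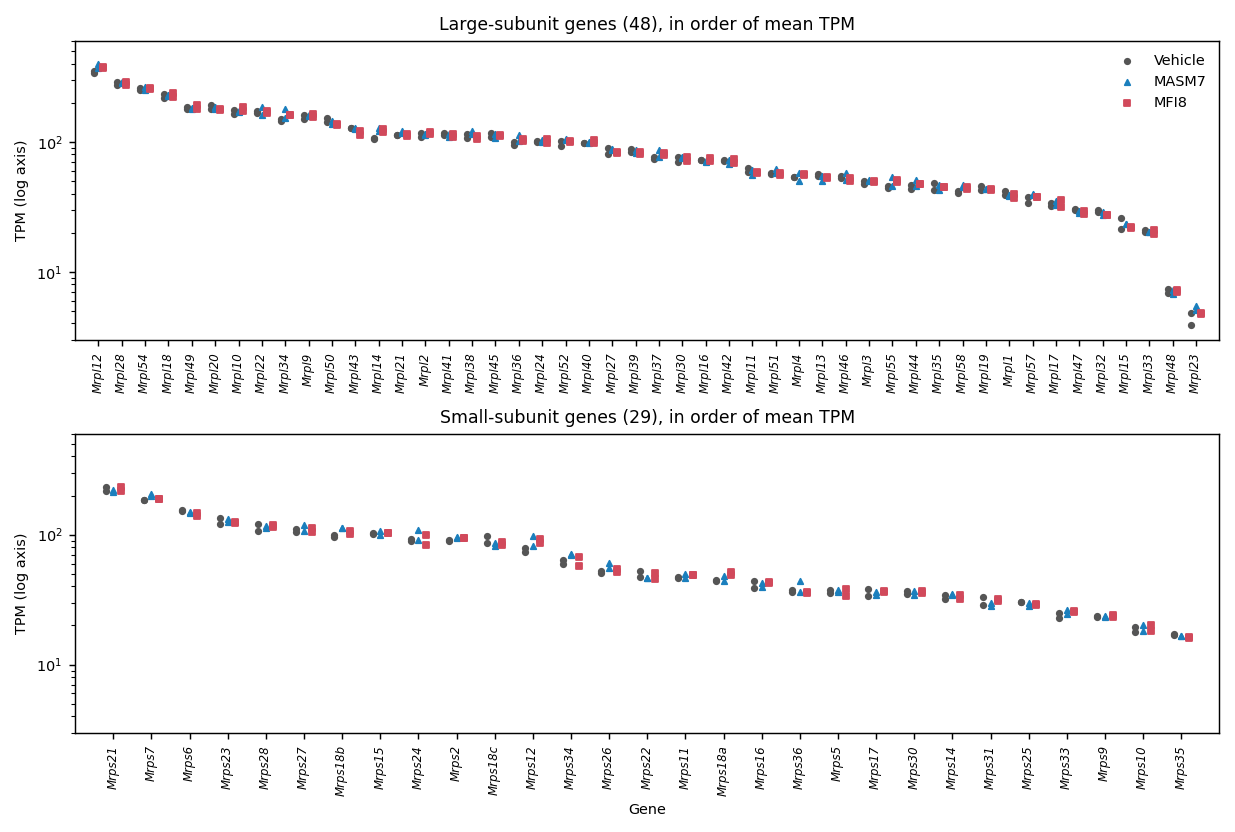
Deposited TPM of each gene on a log axis, in order of mean TPM, with 1 symbol per library coloured by group and the subunits in separate panels. Mrpl12 is the highest at 368 TPM and Mrpl23 the lowest at 4.80 TPM, and the 6 libraries of a gene lie close together beside the spread between genes.

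As a sum over genes, the large subunit stood at 2819.3 and 2847.3 CPM (counts scaled to library size with TMM factors) in Vehicle, 2858 and 2971.5 in MASM7, and 2807.3 and 2779.5 in MFI8. The small subunit stood at 1368 and 1362.3 CPM in Vehicle, 1394.8 and 1444.6 in MASM7, and 1357.2 and 1353 in MFI8. Both MASM7 libraries lay above both Vehicle libraries and both MFI8 libraries below them in each subunit. The group means were 2833.3 ± 19.8, 2914.8 ± 80.3 and 2793.4 ± 19.7 CPM for the large and 1365.2 ± 4.03, 1419.7 ± 35.2 and 1355.1 ± 2.97 CPM for the small subunit (SD, n = 2). MASM7 replicate 2 was the highest library in both sums, and the MASM7 libraries lay farther apart than those of the other groups.

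The order of MFI8 and Vehicle depended on the unit. In TPM the large subunit summed to 4669.3 and 4713.9 in Vehicle, 4735.1 and 4899.8 in MASM7, and 4777.7 and 4730.3 in MFI8, so that MFI8 stood above Vehicle. The small subunit likewise summed to 2083.4 and 2073.1, 2102.6 and 2180.5, and 2113.4 and 2089.8 TPM. The subunits kept nearly the same proportion throughout, with a large-to-small ratio of 2.049 to 2.09 in CPM and 2.241 to 2.274 in TPM. With 2 libraries against 2, an exact permutation test cannot give a p below 0.333, so these sums were not tested.

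**Figure D2:**
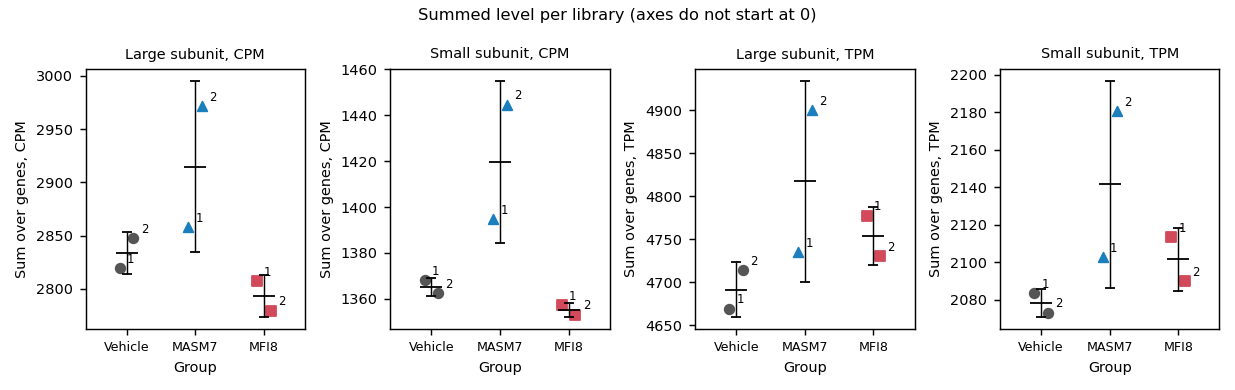
Sum over the genes of each subunit in each library, in TMM-scaled CPM and in deposited TPM, with the replicate number beside each symbol and the mean and SD of each group in black; the axes do not start at 0. MASM7 replicate 2 is the highest library in all panels, and MFI8 lies below Vehicle in CPM and above it in TPM.

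With MASM7, most mitochondrial ribosomal protein genes stood slightly higher than in Vehicle, and whether any passed the test depended on the model. No gene passed at an adjusted p under 0.05 without the replicate number in the fit, and 3 did, all higher, with it as a block. Under edgeR's quasi-likelihood test, adjusted by Benjamini-Hochberg over all genes, 0 of 77 passed, against 0% of all 14290 genes tested, and the smallest adjusted p of a member was 0.466. At an unadjusted p under 0.05, 8 members stood higher (5.32% of all genes did) and 0 lower (4.88%). DESeq2 and limma on log2(TPM + 1) called 0 members too. Over all genes DESeq2 called 2 and limma called 0. With the replicate block edgeR called Mrps18b (adjusted p 0.0239), Mrpl12 (0.0319) and Mrpl14 (0.0375), which is 3.9% of the members beside 3.88% of all genes. With a length offset added to the block 5 members were called (6.49%, beside 5.08% of all genes), and with GC and length offsets added only Mrps18b was (adjusted p 0.0478; 1.3%, beside 1.16% of all genes), with 0.201 for Mrpl12 and 0.25 for Mrpl14.

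The fold changes with MASM7 were small, 53 higher and 24 lower, with a median log2 fold change of 0.03 against 0.00067 over all genes, 49.9% of which were lower. The large subunit had 33 higher and 15 lower with a median of 0.0305, and the small subunit 20 higher and 9 lower with a median of 0.0341. Both libraries of MASM7 lay above both of Vehicle for 24 members (21.2% of all genes) and below for 5 (21.6%). These are descriptions, since genes are not replicates. The median within replicate number 1 was 0.012 and within number 2 was 0.0576, and without MASM7 replicate 2 the members split 42 higher and 35 lower. How many members had an unadjusted p under 0.05 also moved with the library left out. The split also moved with scalings that shift all genes alike, to 62 higher and 15 lower without a filter on low counts, 48 and 29 with library size alone, and 46 and 31 in limma on TPM. Relative to the median of all genes, 52 or 53 members lay higher in each of these.

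Among the members with MASM7, the smallest p was that of Mrps18b, 1 of 3 paralogs of the bacterial protein S18. It stood at 59.1 and 55.9 CPM in Vehicle, 66.9 and 67.4 in MASM7, and 62.3 and 58.3 in MFI8. Its MASM7 libraries lay above all others, with a log2 fold change against Vehicle of 0.22 (SE 0.063, edgeR adjusted p 0.466, or 0.0239 with the replicate block). Mrpl14, which sits at the face between the subunits, stood at 29.2 and 27.9 CPM in Vehicle, 34.7 and 32.9 in MASM7, and 33.2 and 31.4 in MFI8. Both compounds' libraries lay above Vehicle for this gene, with log2 fold changes of 0.24 (SE 0.075, adjusted p 0.473, or 0.0375 with the replicate block) for MASM7 and 0.18 (SE 0.075, adjusted p 0.472) for MFI8. With GC and length offsets added to the block the adjusted p for MASM7 was 0.25.

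Mrpl12 of the stalk stood at 153 and 146 CPM in Vehicle, 163 and 175 in MASM7, and 161 and 157 in MFI8. Its log2 fold change with MASM7 was 0.18 (SE 0.057, edgeR adjusted p 0.473, or 0.0319 with the replicate block), and both MASM7 libraries lay above both Vehicle libraries. With GC and length offsets added to the block its adjusted p was 0.201. In GENCODE, 13.1% of its exonic bases lie opposite Gm16755, and whether the counting used strand is not stated for any gene. Mrps26, a small-subunit protein without a bacterial counterpart, stood at 65.1 and 62.6 CPM in Vehicle, 69.5 and 75.9 in MASM7, and 66.0 and 62.5 in MFI8, so that MASM7 lay apart from both other groups. Mrps7, of the head of the small subunit, had 108 and 107 CPM in Vehicle, 117 and 122 in MASM7, and 109 and 108 in MFI8. The log2 fold changes with MASM7 were 0.19 (SE 0.066) for Mrps26 and 0.14 (SE 0.053) for Mrps7, with an edgeR adjusted p of 0.473 for each.

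Members more than 3 scaled median absolute deviations from the median of all members were Mrpl23 and Mrps12 with MASM7. Mrps12 belongs to the decoding centre, where codon and tRNA are matched. It stood at 23.2 and 21.5 CPM in Vehicle, 24.5 and 29.1 in MASM7, and 25.1 and 26.7 in MFI8, with a log2 fold change of 0.26 with MASM7 (SE 0.099, edgeR adjusted p 0.477) and 0.21 with MFI8 (SE 0.10, adjusted p 0.527). For MASM7 its adjusted p was 0.0651 with the replicate block, 0.037 with a length offset added to it and 0.215 with GC and length offsets added. Vehicle was the lowest group, and the MASM7 libraries differed from each other by more than Vehicle's did. Mrpl23 stood at 6.71 and 5.37 CPM in Vehicle, 7.10 and 7.59 in MASM7, and 6.53 and 6.45 in MFI8, a log2 fold change of 0.29 with MASM7 (SE 0.15, adjusted p 0.531). As the gene of lowest count it had the widest error of the members.

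With MFI8, the members were spread about 0, and no mitochondrial ribosomal protein gene passed against Vehicle at an adjusted p under 0.05 with or without the replicate block. In edgeR's quasi-likelihood test 0 of 77 passed (0% of all genes), with a smallest adjusted p of 0.451, and 0 with the replicate block, beside 5.04% of all genes. A length offset together with the block called 2, Mrpl14 (adjusted p 0.0319) and Mrps12 (0.045), both higher, beside 6.36% of all genes, and with GC and length offsets and the block the count was 0. At an unadjusted p under 0.05, 1 member stood higher (5.21% of all genes) and 3 lower (4.65%). DESeq2 called 0 members and 49 genes in all, and limma called 0 members and 0 genes. The count of 4 at an unadjusted p under 0.05 was not stable between methods. It also moved as single libraries were left out, which leaves 1 library in a group.

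By fold change, 30 members stood higher and 47 lower with MFI8, with a median log2 fold change of -0.0122 against 0.0027 over all genes, 49.3% of which were lower. Medians were -0.0189 for the large subunit (18 higher, 30 lower) and -0.0119 for the small subunit (12 higher, 17 lower). The small-subunit median turned positive without MFI8 replicate 1 (0.000646), MFI8 replicate 2 (0.0104) or Vehicle replicate 1 (0.00638), so it had no stable direction. The split depended on the unit: in limma on log2(TPM + 1) the split was 47 higher and 30 lower, and with offsets for GC content and length it was 38 and 39. Relative to the median of all genes, however, 47 of 77 lay lower in limma on TPM and 48 in edgeR, but 38 with the GC and length offsets, where the direction was lost. Both MFI8 libraries lay above both Vehicle libraries for 12 members (20.9% of all genes) and below for 18 (19.3%).

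Mrpl50, a large-subunit protein added in mitochondria, had the smallest p with MFI8. It stood at 86.0 and 90.3 CPM in Vehicle, 86.7 and 83.9 in MASM7, and 79.0 and 80.8 in MFI8, a log2 fold change of -0.14 with MFI8 (SE 0.057, edgeR adjusted p 0.451). Mrpl43, also without a bacterial counterpart, stood at 55.5 and 54.5 CPM in Vehicle, 54.9 and 55.7 in MASM7, and 47.9 and 51.5 in MFI8. MFI8 was the lowest group for both genes, and for Mrpl43 the log2 fold change was -0.15 (SE 0.064, edgeR adjusted p 0.49). Of the exonic bases of Mrpl43, 33.4% overlap another gene, here Twnk on the opposite strand. Mrps6, the counterpart of bacterial S6, had 66.6 and 66.7 CPM in Vehicle, 64.9 and 65.1 in MASM7, and 59.2 and 62.2 in MFI8, a log2 fold change of -0.13 (SE 0.058, edgeR adjusted p 0.49). MFI8 again lay below both other groups, and 19.9% of the exonic bases of Mrps6 are shared on the same strand with Gm49711 and Slc5a3.

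**Figure D3:**
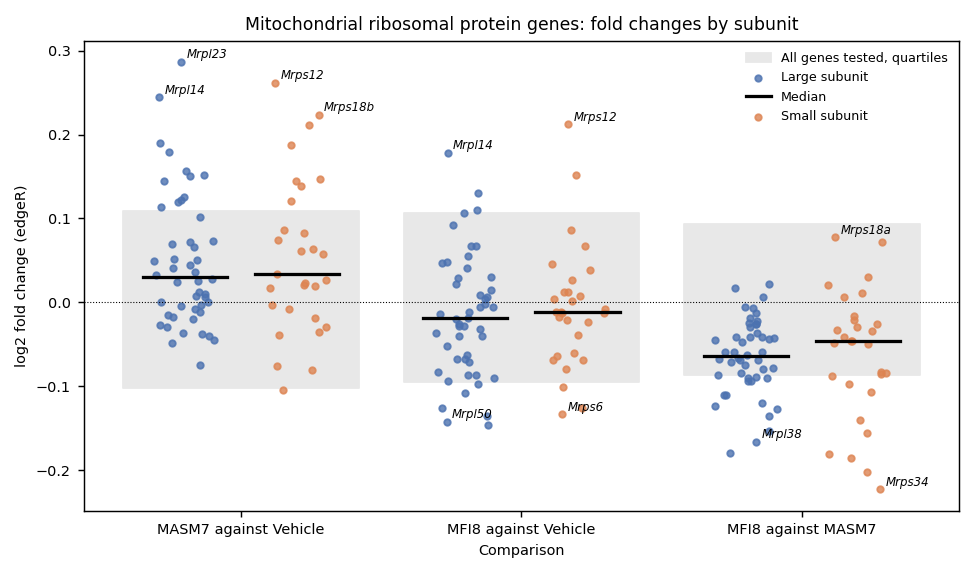
edgeR log2 fold change of each gene in the 3 comparisons, with large-subunit genes in blue, small-subunit genes in orange, medians as black bars and the range from the lower to the upper quartile of all 14290 genes tested in grey. The medians are 0.0305 and 0.0341 with MASM7, -0.0189 and -0.0119 with MFI8, and -0.0644 and -0.0463 between MFI8 and MASM7, and most genes lie within the grey band.

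Set directly against each other, MFI8 stood below MASM7 for most mitochondrial ribosomal protein genes, though none passed the test with or without the replicate block. In edgeR's quasi-likelihood test 0 of 77 passed (0% of all genes), with a smallest adjusted p of 0.62, and 0 with the replicate block, beside 3.07% of all genes. Without the block, at an unadjusted p under 0.05 there were 0 members higher (4.23% of all genes) and 7 lower (2.95%). DESeq2 called 0 members and 29 genes in all, and limma on TPM called 0 members and 0 genes. The count of 7 at an unadjusted p under 0.05 was lower in both methods. It also fell without MASM7 replicate 2 or MFI8 replicate 2, which leaves 1 library in a group.

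In this comparison 9 members stood higher and 68 lower, a share of 88.3% lower against 50.5% of all genes, with a median log2 fold change of -0.0588. The large subunit had 3 higher and 45 lower, and the small subunit 6 and 23. Both MFI8 libraries lay below both MASM7 libraries for 31 members (19.6% of all genes) and above for 1 (19.6%). The split was 23 and 54 without MASM7 replicate 2, 17 and 60 with a length offset, 18 and 59 with GC and length offsets, and 30 and 47 in limma on log2(TPM + 1), where 68 members still lay below the median of all genes. The cytosolic ribosomal protein genes had a like split, 8 higher and 76 lower of 84 tested, with a median of -0.0554. In that list the smallest p against Vehicle were those of Rps15, with a log2 fold change of 0.27 (SE 0.065), and Rpl34, with 0.20 (SE 0.051), both for MASM7 and each with an edgeR adjusted p of 0.466. With the replicate block 10 of the 84 passed with MASM7, 9 higher, beside 3.88% of all genes. Rps15 (adjusted p 0.00278) and Rpl34 (0.0128) were among them. Of the 84, 2 passed with MFI8 (5.04% of all genes) and 2 between the compounds (3.07%).

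The small-subunit member Mrps34 was the 1 member more than 3 scaled median absolute deviations from the others in this comparison. It stood at 37.4 and 34.5 CPM in Vehicle, 41.4 and 41.8 in MASM7, and 38.4 and 33.1 in MFI8, a log2 fold change of MFI8 against MASM7 of -0.22 (SE 0.084, edgeR adjusted p 0.639). The MFI8 libraries spanned the Vehicle libraries and MASM7 lay above both, with a log2 fold change of 0.21 against Vehicle (SE 0.085, edgeR adjusted p 0.477). Of its exonic bases 77.8% overlap another gene on either strand, with Mapk8ip3 opposite, and 37.0% are shared with Nme3 on the same strand, so reads of the 2 genes may be mixed. Mrpl38, of the central protuberance, had 82.7 and 76.4 CPM in Vehicle, 83.6 and 88.5 in MASM7, and 79.2 and 74.3 in MFI8, a log2 fold change of -0.17 (SE 0.065, edgeR adjusted p 0.649). Here too the MFI8 and Vehicle ranges overlapped. Mrps26 had a log2 fold change of -0.18 (SE 0.066, edgeR adjusted p 0.62, or 0.0874 with the replicate block) from the values above. With GC and length offsets added to the block Mrps26 (adjusted p 0.0317) and Mrpl15 (0.0317) were called, beside 5.84% of all genes. Mrpl21, the counterpart of bacterial L21, had 64.4 and 63.7 CPM in Vehicle, 69.4 and 68.0 in MASM7, and 63.7 and 62.2 in MFI8, a log2 fold change of -0.13 (SE 0.056, edgeR adjusted p 0.689), and MASM7 lay above both other groups.

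**Figure D4:**
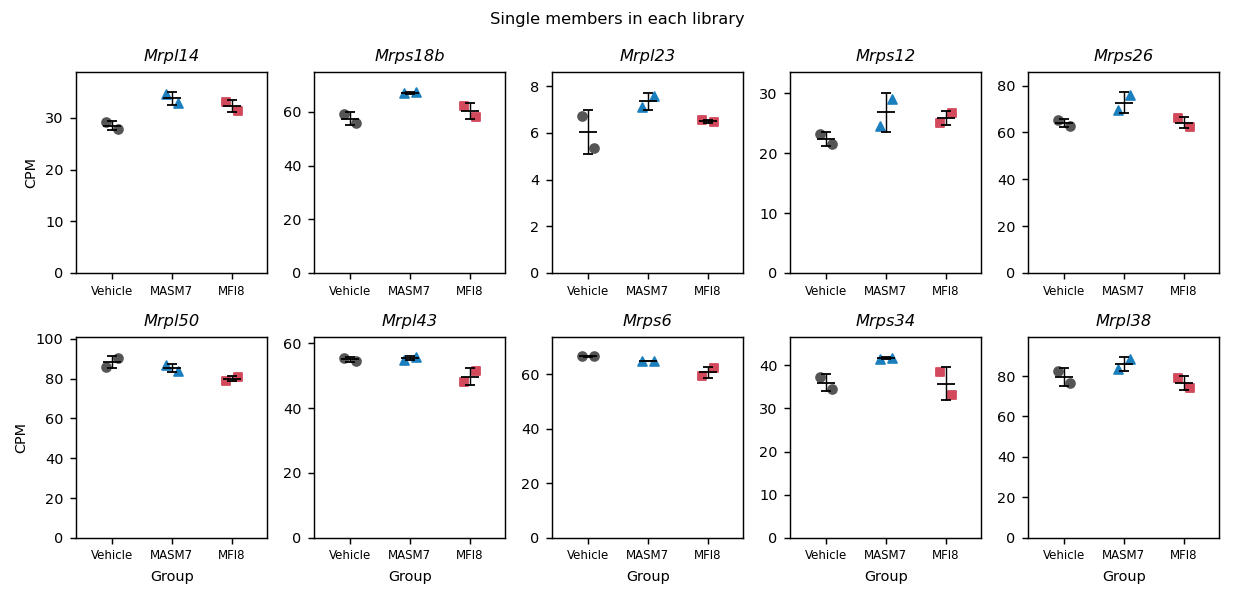
TMM-scaled CPM of 10 members in each library from 0, with 2 symbols per group and the group mean and SD in black. MASM7 is the highest group for Mrps18b at 66.9 and 67.4 CPM, and MFI8 is the lowest for Mrpl50 at 79.0 and 80.8 CPM.

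The 3 paralogs of bacterial S18 had different values. Mrps18a, which is built into the large subunit in spite of its name, stood at 47.0 and 46.0 CPM in Vehicle, 46.7 and 51.2 in MASM7, and 53.1 and 50.3 in MFI8, with a log2 fold change of 0.15 with MFI8 (SE 0.070, edgeR adjusted p 0.517). Mrps18c stood at 26.4 and 29.4 CPM in Vehicle, 26.7 and 25.1 in MASM7, and 24.95 and 26.2 in MFI8, with log2 fold changes of -0.11 (SE 0.085, adjusted p 0.667) and -0.13 (SE 0.085, adjusted p 0.647). Mrps18a and Mrps18c did not pass the test, and whether the paralogs differed from each other was not tested. Of the exonic bases of Mrps18c, 23.2% are shared with Gm43511 on the same strand.

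Other landmarks of the particle did not pass the test either. Mrps30, which likewise belongs to the large subunit, had log2 fold changes of 0.02 (SE 0.063) with MASM7 and -0.01 (SE 0.064) with MFI8. Mrps36, now known as a subunit of 2-oxoglutarate dehydrogenase, had 0.14 (SE 0.11) and -0.06 (SE 0.12). Mrpl45, which holds the ribosome to the inner membrane, had 0.01 (SE 0.061) and -0.04 (SE 0.061), and Mrpl44 had 0.12 (SE 0.088) and 0.05 (SE 0.089). Mrps22, a mitochondrial addition to the small subunit, had -0.08 (SE 0.073) and -0.07 (SE 0.074). Mrpl58, a peptidyl-tRNA hydrolase that frees stalled ribosomes, had 0.15 (SE 0.068) and 0.07 (SE 0.068). Placing Mrps18a and Mrps30 with the large subunit and leaving out Mrps36 gave medians of 0.0305 for 50 large-subunit and 0.0303 for 26 small-subunit genes with MASM7, and -0.0163 and -0.0117 with MFI8.

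Division by origin gave like values. The 46 genes with a bacterial counterpart had medians of 0.0334 with MASM7, -0.0115 with MFI8 and -0.054 between the compounds, and the 30 without had 0.0229, -0.0245 and -0.0666. By place, MFI8 stood below MASM7 in 6 of 6 genes of the central protuberance, 7 of 7 of the exit tunnel and membrane side and 2 of 3 of the stalk. It also did so in 3 of 5 of the peptidyl transferase region, where peptide bonds form, and 2 of 2 of the decoding site. Of all members 88.3% and of all genes 50.5% were lower. Within both replicate numbers MFI8 was lower for 2, 5, 1, 2 and 1 of these genes, in the order given. None of these genes passed the test of the compounds against each other.

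The partners of these proteins were set beside them. Of 5 ribosomal proteins outside the name pattern, 5 stood higher with MASM7 (median 0.0171) and 4 lower with MFI8 (median -0.0172). Of all genes, 49.9% were lower with MASM7 and 49.3% with MFI8. Within both replicate numbers, 2 of the 5 stood higher with MASM7 and 4 lower with MFI8. Gadd45gip1, a large-subunit protein, had 64.2 and 64.9 CPM in Vehicle, 70.7 and 71.9 in MASM7, and 69.2 and 65.9 in MFI8, and its MASM7 log2 fold change was 0.14 (SE 0.057, edgeR adjusted p 0.477). Ptcd3, a small-subunit protein, was next by p, with a log2 fold change of -0.08 with MFI8 (SE 0.059, edgeR adjusted p 0.679). Of 32 assembly factors, 24 were higher with MASM7 (median 0.0284) and 19 with MFI8 (median 0.033), with the smallest p for Mpv17l2 and Gtpbp6. Mpv17l2, an inner-membrane protein that assists assembly, had a log2 fold change of 0.24 with MASM7 (SE 0.091, edgeR adjusted p 0.477), and Gtpbp6, a GTPase of large-subunit assembly, had 0.19 (SE 0.074, edgeR adjusted p 0.477). Of 16 translation factors, 9 were higher with each compound (medians 0.0132 and 0.00853), and the smallest p were those of Guf1, with -0.19 (SE 0.097, edgeR adjusted p 0.522), and Tsfm, with 0.13 (SE 0.068, edgeR adjusted p 0.531), both for MASM7. No gene of these 3 lists passed the test, with or without the replicate block.

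The 2 mitochondrial rRNAs, on which the proteins assemble, stood lower with both compounds. The large-subunit rRNA mt-Rnr2 stood at 1089 and 1157 CPM in Vehicle, 1002 and 903 in MASM7, and 796 and 896 in MFI8. The small-subunit rRNA mt-Rnr1 stood at 420 and 463 CPM in Vehicle, 397 and 375 in MASM7, and 341 and 378 in MFI8. All treated libraries lay below both Vehicle libraries for both rRNAs. The log2 fold changes of mt-Rnr2 were -0.24 (SE 0.071, edgeR adjusted p 0.473) with MASM7 and -0.41 (SE 0.071, edgeR adjusted p 0.107) with MFI8, and those of mt-Rnr1 were -0.19 (SE 0.068, edgeR adjusted p 0.473) and -0.30 (SE 0.068, edgeR adjusted p 0.276). Without the replicate number in the fit neither passed the test. With it as a block both fell, with an adjusted p of 0.0135 for mt-Rnr2 and 0.027 for mt-Rnr1 with MASM7, and 1.13e-05 and 0.000303 with MFI8, and neither differed between the compounds at 0.05. The libraries were selected for polyadenylated RNA, so these counts cover only the rRNA that was retained. Mitochondrially encoded genes as a whole took 1.66% and 1.82% of counts in Vehicle, 1.61% and 1.51% in MASM7, and 1.37% and 1.43% in MFI8, and the part of this share in the rRNA values was not tested.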

How the data were processed

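RNA-seq of 6 MEF libraries was analysed from gene-level tables. Concentrations and treatment time were taken from the text of the study, since the sample labels name only the compound. Per the authors' methods, Trimmomatic was used for trimming, STAR for alignment to GRCm38 and featureCounts for counting on exons, and the deposited raw counts are whole numbers per gene symbol. The authors also deposited TPM values, whose gene lengths are not given in the sources used here, and size-factor-normalized counts, which were not used. The strand setting and annotation release are not given there either.

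After filterByExpr 14290 of 55291 genes remained. In edgeR 4.0.16 (R 4.3.3), all 6 libraries entered 1 model of the raw counts with TMM factors and a coefficient for each group. Contrasts were tested by quasi-likelihood (F test), with p-values adjusted by Benjamini-Hochberg over all genes tested and a threshold of 0.05. The SE is the absolute log2 fold change over the root of F. The common dispersion was 0.00394. Median SE of a member was 0.0676, 0.0682 and 0.0672 for MASM7 against Vehicle, MFI8 against Vehicle and MFI8 against MASM7. On simulated counts for MFI8 against Vehicle, 86.5% of 200 genes changed by 2-fold were recovered among 14290. The simulation held 1 fixed dispersion and no differences shared by replicate number. No member changed by 2-fold, and recovery of changes as small as theirs was not simulated. Alternatives were DESeq2 1.42.0, limma 3.58.1 on log2(TPM + 1), other scalings and filters, offsets for length and for GC content, a replicate block and leaving out each library. Levels between genes were compared in TPM and of 1 gene between libraries in TMM-scaled CPM. A group left with 1 library was assumed to vary like the others. Replicate libraries of a group differed by more than counting noise. The labels number the replicates alike in each group without saying what a number marks. Replicate differences correlated between the 3 pairs of groups at 0.188, 0.152 and 0.165 over all genes tested and at 0.508, 0.621 and 0.538 over the more highly expressed part of them, so the pairing was taken from the data, and blocked values stand beside the calls they change.

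The members and lists were chosen with earlier results of these data known, and the promoter motifs and GC offsets after the values were seen. Named genes were, in each subunit, the 3 of smallest p per comparison, the 3 highest and 3 lowest by TPM, members over 3 scaled median absolute deviations from the median, those beside the count minimum, and set landmarks and paralogs. For each other list they were the 2 of smallest p against Vehicle. Gene positions and overlaps came from GENCODE vM21 on GRCm38, matched by symbol (77 of 77). Cytosolic ribosomal protein genes numbered 84 tested of 88 listed.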

Additional observations from a re-analysis of the deposited data

How the results depend on the processing

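No member was called at an adjusted p under 0.05 by edgeR under other scalings, filters or subsets of libraries, by DESeq2 or by limma, except under a replicate block. Replicate differences correlated between groups at -0.0273, 0.31 and 0.0252 over members. With the replicate block, 3 members were called with MASM7 (Mrpl12, Mrpl14 and Mrps18b; 554 genes in all, 3.88%), 0 with MFI8 (720 genes) and 0 between the compounds (439 genes), and both mitochondrial rRNAs with each compound. With a length offset and the block the counts of members were 5, 2 and 0 (6.49%, 2.6% and 0%, beside 5.08%, 6.36% and 2.96% of all genes), and with GC and length offsets and the block they were 1 (Mrps18b), 0 and 2 (Mrpl15 and Mrps26), or 1.3%, 0% and 2.6% beside 1.16%, 4.72% and 5.84% of all genes.

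The large-subunit median for MFI8 against MASM7 was -0.043 with library size alone and -0.0192 in limma on log2(TPM + 1), where the small-subunit median was -0.00238. In limma on TPM the MFI8 against Vehicle medians were 0.00757 and 0.0141 for the large and small subunit. Leaving out each library in turn gave small-subunit medians of 0.00137 to 0.0649 for MASM7 against Vehicle and -0.0202 to 0.0104 for MFI8 against Vehicle, and for MFI8 against MASM7 large-subunit medians of -0.0841 to -0.0327 and small-subunit medians of -0.0853 to -0.0389. The lowest value for MASM7 against Vehicle was that without MASM7 replicate 2. Calls over all genes without a filter on low counts were 127, 256 and 168 in the order above, against 0 in each comparison as reported. The cause of these shifts was not tested. With 2 libraries per group, Mrps18b at a log2 fold change of 0.22 (SE 0.063) still had an edgeR adjusted p of 0.466 without the block.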
